A study of Mus musculus with 2 samples.

Results

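Aminoacyl-tRNA synthetases are the enzymes that join each amino acid to its transfer RNA before translation. They were followed here as 36 genes chosen by symbol, out of 24421 genes in the count tables. Of these, 20 encode cytosolic enzymes and 16 encode enzymes that serve mitochondrial translation, whose symbols end in 2. All 36 symbols were found in both libraries. Mammals keep separate synthetases for the cytosol and for mitochondria for most amino acids, and nuclear genes encode both kinds. Many of the cytosolic genes are targets of ATF4, the transcription factor of the integrated stress response, in cultured mouse and human cells. The mitochondrial enzymes charge transfer RNAs for the few respiratory chain proteins that mitochondria make themselves, in an organelle that hepatocytes hold in large number.

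RNA was sequenced from liver of male C57BL/6 mice that were 6 weeks old when a high-fat diet began and were kept on it for 12 weeks. The library labelled LKO carried floxed Rora alleles and Cre under the albumin promoter (RORα f/f:Alb-Cre), a driver that acts in hepatocytes. In which liver cells recombination took place was not measured here. The control library carried the floxed alleles alone (RORα f/f). There was 1 library per genotype, and the sources used here do not say whether it pooled mice. Differences therefore have no replicate check, and no p-value was computed.

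Total counts were 131843686 in the library labelled LKO and 128201591 in the control library. Levels are CPM, counts relative to a library size that edgeR's TMM method adjusts, and ratios are LKO over control with a 95% exact interval for counting error alone. A gene was measured at a mean of at least 1 CPM and a summed count of at least 20, which 11137 genes met. The calls below need a ratio of at least 1.5-fold and an interval on 1 side of 1. The scaling matters, since plain totals would add 0.42 to each log2 ratio and would move those between -0.42 and 0 above 0. Rora, the targeted gene, had 24.1 CPM in the library labelled LKO and 33.4 CPM in the control library, a log2 ratio of -0.47. Its total over the gene was thus not lost, and directions below are stated for the library labelled LKO. Of 10 measured hepatocyte markers, 3 (Tat, Serpina1a and Cps1) passed 1.5-fold on the lower side and the interval of 8 lay below 1 (summed level 134934 CPM in the library labelled LKO, against 175878 CPM in the control library). With plain totals the log2 ratios of Alb, Ttr, Apoa1 and Ass1 turn positive, at 0.05, 0.09, 0.19 and 0.02. Those of Tat, Serpina1a, Cps1 and Pck1 stay negative, so the lower hepatocyte sum rests on the scaling. None of 7 lymphocyte markers was measured, with sums of 1.76 CPM in the library labelled LKO and 3.27 CPM in the control library. Of 9 measured Kupffer cell and macrophage markers, 7 passed 1.5-fold on the lower side (summed level 107 CPM in the library labelled LKO, against 168 CPM in the control library). Of 9 stellate cell and fibroblast markers, 5 passed it on the higher side (293 CPM in the library labelled LKO, against 209 CPM in the control library). Of 7 endothelial markers 0 passed it, and the interval of 5 lay above 1 (197 CPM in the library labelled LKO, against 172 CPM in the control library). Of 2 measured cholangiocyte markers 0 passed it, and the interval of 2 lay below 1. These were Sox9 and Spp1, whose log2 ratios turn to 0.15 and 0.06 with plain totals. Over all measured genes, 9.76% passed 1.5-fold on the lower side and 10.5% on the higher side, and 38.1% of intervals lay on each side of 1. The part of these shifts in the synthetase values was not tested, and in bulk liver fewer cells of a type and less RNA per cell cannot be told apart.

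Short stretches of the members' promoters are shown first, because known ATF4 targets carry its element near the gene start. RefSeq promoters on GRCm38.p6, each 250 bases before to 50 bases after a start site, were at hand for 27 of the 36 members. They were searched on both strands for TGATGNAA, the core of the C/EBP-ATF response element to which ATF4 binds. It was present in 5 of 13 cytosolic members with a promoter, in 0 of 14 mitochondrial members and in 4.51% of 27025 genes with a promoter. Among measured genes the share was 2.80% of 8385. The 5 genes, Aars, Gars, Iars, Tars and Yars, were all among the 8 ATF4-linked cytosolic members with a promoter, while 0 of 5 other cytosolic members held it. The linked genes were listed by hand as Aars, Cars, Eprs, Gars, Iars, Lars, Mars, Nars, Sars, Tars, Vars, Wars and Yars. Because known targets carry the element, this split is no separate evidence. The match nearest the start site of each gene is shown 5′ to 3′ along the gene with 30 bases in all, and capitals mark the core, which reads TTNCATCA where it lies on the opposite strand:
Aars: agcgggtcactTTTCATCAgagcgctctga
Gars: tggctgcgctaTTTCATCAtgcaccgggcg
Iars: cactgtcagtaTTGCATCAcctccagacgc
Tars: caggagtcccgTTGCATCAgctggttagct
Yars: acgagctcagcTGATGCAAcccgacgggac
The Aars stretch lies at chr8:111033840-111033869 on the plus strand, and its core begins at position 10 from the start site. The Gars stretch lies at chr6:55037960-55037989 on the plus strand, with its core at -30. The Iars and Yars stretches lie at chr13:49682126-49682155 and chr4:129189895-129189924, both on the plus strand, with cores at 8 and 4. The Tars stretch lies at chr15:11399655-11399684 on the minus strand, with its core at -15. A match is a run of letters and not a binding site.

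A second motif, CCGGAA, the core bound by ETS family factors such as GABPA, is common in promoters of nuclear genes for mitochondrial proteins. It was present in 7 of 14 mitochondrial members, in 5 of 13 cytosolic members and in 31.8% of measured genes with a promoter. The 3 stretches below, from mitochondrial members whose values are given later, show it in capitals, as TTCCGG on the opposite strand:
Rars2: agcagaggcgacTTCCGGcgcggaggcggg
Cars2: gagtgtagcctcTTCCGGgagtgggcggag
Iars2: cagacttccaagCCGGAAaaccccgccctt
The Rars2 stretch lies at chr4:34614942-34614971 on the plus strand, and those of Cars2 and Iars2 at chr8:11550771-11550800 and chr1:185329422-185329451 on the minus strand. The core motif of NRF1, a factor of respiratory genes, was in 0 of 27 members and in 2.41% of measured genes with a promoter.

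Levels differed far more between members than between libraries. Read per length, as CPM per kilobase of the longest annotated transcript, the cytosolic median was 6.57 in the library labelled LKO and 7.22 in the control library, and the mitochondrial median was 1.40 in the library labelled LKO and 1.69 in the control library. Of 17 pairings of a cytosolic enzyme with the mitochondrial enzyme for the same amino acid, the cytosolic one stood higher per kilobase in 13 in the library labelled LKO and in 15 in the control library. Kars, the lysine enzyme of both compartments, was highest per kilobase, at 37.6 in the library labelled LKO and 39.2 in the control library. Farsb followed at 33.6 in the library labelled LKO and 33.9 in the control library, and Nars, the asparagine enzyme, at 16.5 in the library labelled LKO and 20.3 in the control library. These 3 genes have 4 or 5 curated RefSeq transcripts each, and counts in these files may be sums over transcripts, so the order of levels is rough.

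**Figure D1:**
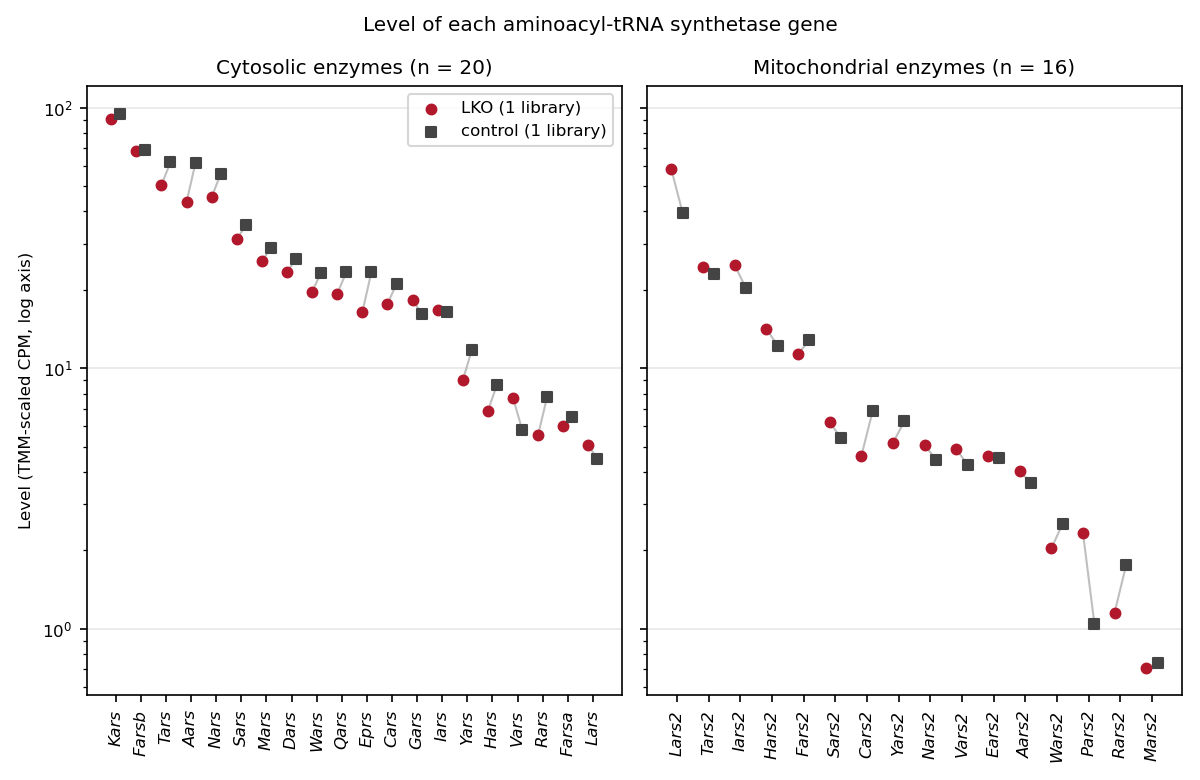
Level of each of the 36 genes in TMM-scaled CPM on a log axis, with the library labelled LKO as red circles and the control library as grey squares, joined by a line for each gene. Levels run from under 1 CPM for Mars2 to over 90 CPM for Kars, while the 2 points of a gene lie close together for most members.

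Farsa and Farsb encode the alpha and beta subunits of the same phenylalanine enzyme, which assembles from equal numbers of both. Farsb nevertheless stood 18.6 times as high as Farsa per kilobase in the library labelled LKO and 17.4 times as high in the control library. Divided also by the number of curated transcripts, 4 for Farsb and 2 for Farsa, the ratio was 9.32 in the library labelled LKO and 8.69 in the control library. Sgpp2, which overlaps 248 exonic bases of Farsb on the opposite strand, had 8 counts in the library labelled LKO and 21 in the control library, where Farsb had 10437 in the library labelled LKO and 7651 in the control library. The opposite order held for leucine, where the mitochondrial gene Lars2 stood 11.7 times as high as cytosolic Lars per kilobase in the library labelled LKO and 8.99 times as high in the control library. Divided also by curated transcripts, 3 for Lars2 and 1 for Lars, the ratio was 3.89 in the library labelled LKO and 2.998 in the control library.

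Most synthetase genes differed little between the libraries. Of the 35 measured members, 1 was called higher and 1 called lower in the library labelled LKO, where 10.5% of all measured genes were higher and 9.76% were lower by the same rule. Both were mitochondrial, Pars2 and Rars2. At 2-fold, Pars2 was called higher and no member lower, against 3.83% and 2.62% of measured genes. At a smaller difference of 0.32 on the log2 scale, 3 members were higher and 7 lower, against 22.8% and 22.6% of measured genes. The median size of the log2 ratio, without its sign, was 0.24 over the members and 0.28 over all measured genes. Mars2, the mitochondrial methionine enzyme, fell short of 1 CPM and was not measured, with 108 counts in the library labelled LKO and 82 in the control library.

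The cytosolic enzymes leaned lower in the library labelled LKO. Their median log2 ratio was -0.21, against -0.0032 over all measured genes, and 4 of 20 had a ratio above 1, where 49.7% of measured genes did. The interval lay below 1 for 14 of the 20 and above 1 for 3, against 38.1% of measured genes on each side. Summed over the 20 genes the level was 527 CPM in the library labelled LKO and 603 CPM in the control library, a ratio of 0.875. This lean is relative to the bulk of genes. With total-count scaling the cytosolic median was 0.21 and 17 of the 20 had a ratio above 1. By that scaling 10 of the 35 members were at least 1.5-fold higher, against 34.3% of measured genes.

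The cytosolic genes with the lowest ratios were Eprs, Aars and Rars. Eprs, which encodes a fused enzyme for glutamate and proline, had 16.4 CPM in the library labelled LKO and 23.4 CPM in the control library, 1.43-fold lower (interval 1.35 to 1.51). Aars, the alanine enzyme, had 43.4 CPM in the library labelled LKO and 61.6 CPM in the control library, 1.42-fold lower (interval 1.37 to 1.47). Rars, the arginine enzyme, had 5.57 CPM in the library labelled LKO and 7.79 CPM in the control library, 1.40-fold lower. In these 3 genes the raw counts were nearly equal, with 2501, 6622 and 849 counts in the library labelled LKO and 2597, 6826 and 863 in the control library. Their direction therefore holds relative to the bulk of genes, with log2 ratios of -0.09, -0.08 and -0.06 under total-count scaling for Eprs, Aars and Rars.

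A middle group of 13 cytosolic genes had log2 ratios from -0.39 to -0.01. Yars, the tyrosine enzyme, was lowest among them at 9.00 CPM in the library labelled LKO and 11.8 CPM in the control library. Hars, the histidine enzyme, stood at 6.87 CPM in the library labelled LKO and 8.64 CPM in the control library. Nars stood at 45.3 CPM in the library labelled LKO and 55.8 CPM in the control library. Yars, Hars and Nars were lower in the library labelled LKO, by 1.31-fold, 1.26-fold and 1.23-fold. Tars, the threonine enzyme, had 50.5 CPM in the library labelled LKO and 61.7 CPM in the control library. Qars and Cars, for glutamine and cysteine, had 19.3 and 17.7 CPM in the library labelled LKO and 23.4 and 21.1 CPM in the control library. The log2 ratios were -0.29, -0.28 and -0.25 for Tars, Qars and Cars, and their intervals overlapped. Wars, the tryptophan enzyme and an interferon-responsive gene, had 19.7 CPM in the library labelled LKO and 23.3 CPM in the control library, a log2 ratio of -0.24. Sars, Mars and Dars, for serine, methionine and aspartate, had log2 ratios of -0.18, -0.17 and -0.17. Farsa and Kars were nearest to no difference with Farsb, at -0.11, -0.06 and -0.01, and the intervals of Farsa and Farsb held a ratio of 1. All 13 of these log2 ratios turn positive with total-count scaling.

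The other 4 cytosolic genes were level or higher. Vars, the valine enzyme, had 7.70 CPM in the library labelled LKO and 5.82 CPM in the control library, 1.32-fold higher (interval 1.20 to 1.46). It had the highest ratio of the cytosolic group and was the only one above 0.32 on the log2 scale under TMM scaling. Gars, the glycine enzyme of both compartments, had 18.3 CPM in the library labelled LKO and 16.2 CPM in the control library, 1.13-fold higher (interval 1.06 to 1.20). Lars, the leucine enzyme that also senses leucine for mTORC1, had 5.07 CPM in the library labelled LKO and 4.47 CPM in the control library, 1.14-fold higher (interval 1.01 to 1.27). Iars, the isoleucine enzyme, stood at 16.7 CPM in the library labelled LKO and 16.5 CPM in the control library, and its interval held 1. Vars has a GC content of 60.9%, and once the trend of all ratios with length and GC was removed its log2 ratio was 0.13 in place of 0.40.

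**Figure D2:**
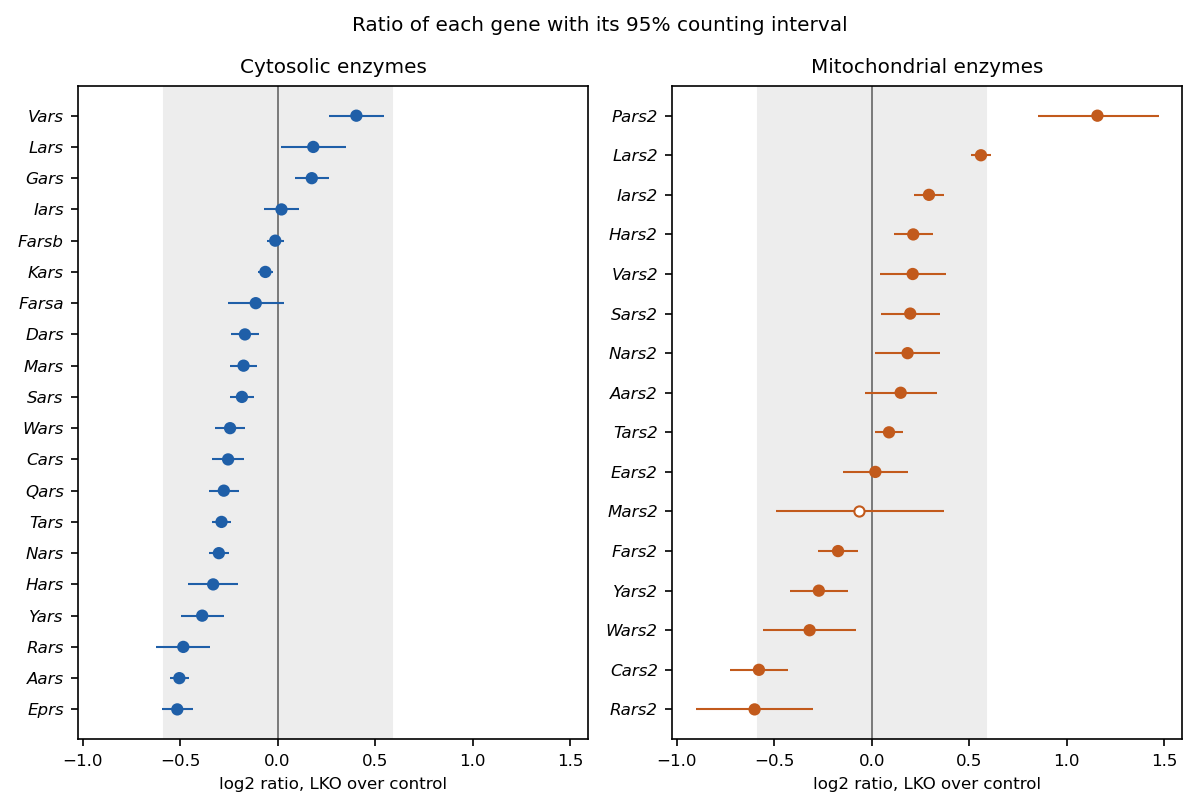
Log2 ratio of CPM, LKO over control, for each gene with its 95% counting interval as a bar, cytosolic enzymes on the left and mitochondrial enzymes on the right, ordered by ratio. The grey band spans 1.5-fold either way, the open circle is Mars2, which was not measured, and only Pars2 at 1.16 and Rars2 at -0.60 lie outside the band.

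The mitochondrial enzymes leaned the other way by a small amount. Their median log2 ratio was 0.15, and 10 of 15 measured genes had a ratio above 1, where 49.7% of all measured genes did. The interval lay above 1 for 8 of the 15 and below 1 for 5, against 38.1% of measured genes on each side. Summed over all 16 genes the level was 174 CPM in the library labelled LKO and 149 CPM in the control library. Lars2 held most of that gap, and without it the sums were 116 CPM in the library labelled LKO and 110 CPM in the control library. After removal of the length and GC trend the mitochondrial median was -0.032, so its sign rests on that choice.

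Pars2, the mitochondrial proline enzyme, had the highest ratio of the family. It had 2.33 CPM in the library labelled LKO, from 356 counts, and 1.05 CPM in the control library, from 116 counts. This was 2.23-fold higher (interval 1.80 to 2.78). Pars2 is on the plus strand of chromosome 4 (GRCm38, 106651069 to 106655282), and its exons overlap no other annotated gene. RefSeq lists 4 curated transcripts for it, and both counts are whole multiples of 4. So were those of 9.16% of measured genes with 4 curated transcripts, against 6.25% if counts and transcript number were unrelated. If each read had been counted 4 times, the counts would be 89 in the library labelled LKO and 29 in the control library, and the interval would run from 1.45 to 3.52, still above 1.

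Rars2, the mitochondrial arginine enzyme, had the lowest ratio of the family. It had 1.15 CPM in the library labelled LKO, from 176 counts, and 1.75 CPM in the control library, from 194 counts, 1.52-fold lower (interval 1.23 to 1.87). It lies just past the 1.5-fold line, and Cars2 just inside it. Cars2, the mitochondrial cysteine enzyme, had 4.60 CPM in the library labelled LKO and 6.87 CPM in the control library, 1.49-fold lower (interval 1.35 to 1.66). The log2 ratio of Rars2 was -0.40 without the length and GC trend and -0.18 with total-count scaling, both short of 1.5-fold.

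Lars2, the mitochondrial leucine enzyme, was the most abundant mitochondrial member and had the second highest ratio. It had 57.9 CPM in the library labelled LKO, from 8836 counts, and 39.3 CPM in the control library, from 4356 counts, 1.47-fold higher (interval 1.42 to 1.53). The gene is on the plus strand of chromosome 9 (GRCm38, 123366927 to 123462666). Iars2, the mitochondrial isoleucine enzyme, had 24.8 CPM in the library labelled LKO and 20.3 CPM in the control library, 1.23-fold higher (interval 1.16 to 1.29). Iars2 shares 24.2% of its exonic bases with genes on the opposite strand. One of these, Rab3gap2, had a log2 ratio of 0.16, and reads of the pair cannot be told apart without strand.

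The remaining mitochondrial genes lay within 0.32 on the log2 scale. Hars2, Vars2, Sars2, Nars2 and Aars2, for histidine, valine, serine, asparagine and alanine, had log2 ratios of 0.21, 0.21, 0.20, 0.18 and 0.15. Tars2, for threonine, and Ears2, for glutamate, were nearly level at 0.09 and 0.02. Fars2, for phenylalanine, had 11.4 CPM in the library labelled LKO and 12.8 CPM in the control library, a log2 ratio of -0.17. Yars2 and Wars2, for tyrosine and tryptophan, had 5.18 and 2.03 CPM in the library labelled LKO and 6.25 and 2.53 CPM in the control library, with log2 ratios of -0.27 and -0.32. The ratios of Fars2, Yars2 and Wars2 turn above 1 with total-count scaling. The intervals of Aars2 and Ears2 held a ratio of 1.

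Setting the compartments side by side removes the choice of scaling, since a scaling shifts both by the same amount. The cytosolic median log2 ratio minus the mitochondrial one was -0.36 with every scaling that kept the same genes, and -0.22 once the length and GC trend was removed. Among 16 pairings of measured enzymes for the same amino acid, the mitochondrial enzyme had the higher log2 ratio in 10 and the cytosolic one in 6. The interval of the difference, from counting error on the log scale, lay below 0 in 9 pairings and above 0 in 2. The median difference was -0.33. Eprs and Fars2 each enter 2 pairings, so these are not 16 separate comparisons.

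Differences are given as cytosolic minus mitochondrial log2 ratio. The widest gap was for proline, where Eprs and Pars2 differed by -1.67 (interval -1.98 to -1.36), followed by alanine, where Aars and Aars2 differed by -0.65 (interval -0.84 to -0.46). Next came histidine, at -0.54 (interval -0.70 to -0.38) between Hars and Hars2. These 2 genes lie head to head on chromosome 18 and share 195 exonic bases, yet stood on opposite sides of 1, at 1.26-fold lower and 1.16-fold higher. Glutamate, asparagine, serine, leucine, threonine and isoleucine followed in the same direction, from -0.53 to -0.27. Cysteine went against it, with a difference of 0.32 (interval 0.16 to 0.49) between Cars and Cars2, and so did phenylalanine by its beta subunit at 0.16 (interval 0.05 to 0.27). For arginine, valine, tryptophan, tyrosine and the phenylalanine alpha subunit the interval held 0.

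**Figure D3:**
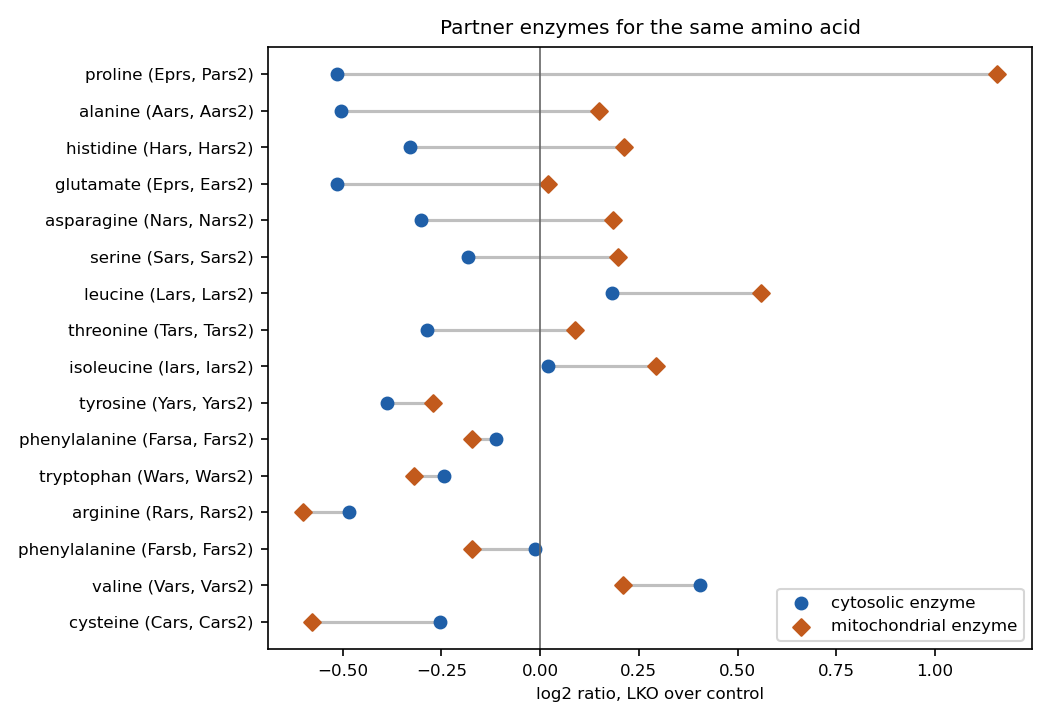
Log2 ratio, LKO over control, of the cytosolic enzyme (blue circle) and the mitochondrial enzyme (orange diamond) for the same amino acid, 1 row per pairing, ordered by the difference. The mitochondrial point lies to the right in 10 of 16 rows, and the widest gap is that of Eprs and Pars2 at -1.67.

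The ATF4-linked cytosolic genes and the other cytosolic genes covered overlapping ranges. The 13 linked genes had a median log2 ratio of -0.24 and a range from -0.51 to 0.40, and the 7 others had a median of -0.17 and a range from -0.48 to -0.01. The 5 genes with the TGATGNAA core shown above spread over much of that range, with log2 ratios of -0.50 for Aars, -0.39 for Yars, -0.29 for Tars, 0.02 for Iars and 0.18 for Gars. Among genes with 1 curated transcript the median was 0.10 for the linked genes and -0.33 for the others, an alternative added after the values were seen. The order is the reverse of that of the full groups. These medians rest on few genes, Aars, Gars, Iars, Lars, Tars and Vars against Hars, Qars and Rars.

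Genes of the ATF4 pathway outside the family were called in both directions. Atf4 had 94.0 CPM in the library labelled LKO and 117 CPM in the control library, a log2 ratio of -0.31 that turns to 0.11 with total-count scaling. Of 37 pathway genes 26 were measured, of which 7 were called higher and 8 lower, against 10.5% and 9.76% of all measured genes. These calls include genes measured through 1 library alone, named below, and the list was chosen with earlier results known. No conclusion is drawn from the called share. The median log2 ratio of the 26 genes was -0.0043. Vldlr, Gdf15 and Fgf21, which encode a lipoprotein receptor and the stress hormones GDF15 and FGF21, were highest, at 14.9-fold, 4.86-fold and 4.59-fold higher. Vldlr had only 32 counts in the control library and was measured through the library labelled LKO. At the other end, Asns, the asparagine synthetase gene, had 31 counts in the library labelled LKO and 330 in the control library, 14.6-fold lower, and it was measured through the control library. Aldh18a1, of proline synthesis, was likewise called lower and measured through the control library, with 0.826 CPM in the library labelled LKO and 1.68 CPM in the control library. Ddit4, an mTORC1 inhibitor gene, and Cth, of cysteine synthesis, were 3.25-fold and 2.23-fold lower. Ddit3, which encodes CHOP and overlaps 68 exonic bases of Mars on the opposite strand, was 1.68-fold lower, where Mars was 1.13-fold lower.

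The multisynthetase complex holds 8 of the cytosolic enzymes on 3 scaffold proteins. The 8 enzymes had a median log2 ratio of -0.17, and 2 of them, Iars and Lars, had a ratio above 1. The scaffold genes Aimp2, Eef1e1 and Aimp1 had log2 ratios of -0.41, -0.30 and -0.18. All 3 were thus lower in the library labelled LKO, and the interval of Aimp1 held 1. With total-count scaling the 3 become 0.01, 0.12 and 0.24.

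Charged transfer RNAs pass to elongation factor 1, and 3 genes of that step and of RNA handling had ratios below that of every cytosolic synthetase gene. Of 13 measured genes of cytosolic elongation and transfer RNA handling, 3 were called lower and 0 higher, against 9.76% and 10.5% of all measured genes. The list's median log2 ratio was -0.12. Eef1g and Eef1b2, subunits of the factor that reloads elongation factor 1A, had log2 ratios of -0.65 and -0.64. Ssb, which encodes the La protein that binds new RNA polymerase III transcripts, followed at -0.61. Gtpbp1, Gtpbp2 and Elac2 were at the other end, at 0.36, 0.35 and 0.12. Gtpbp1 and Gtpbp2 encode GTPases that act on stalled ribosomes, and Elac2 encodes an enzyme that trims transfer RNA.

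Of 15 measured mitochondrial translation genes, which work beside the mitochondrial synthetases, 1 was called lower and 0 higher, against 9.76% and 10.5% of all measured genes. The list's median log2 ratio was 0.08. The 3 highest of this list were Qrsl1, Gatb and Gatc, at 0.52, 0.35 and 0.21, with every interval above 1. They encode the 3 subunits of the amidotransferase that makes glutaminyl-tRNA in mitochondria, which lack a glutaminyl-tRNA synthetase of their own, and Ears2, which charges the transfer RNA that the complex converts, stood at 0.02. Trmu, which modifies mitochondrial transfer RNAs, was lowest, with 1.21 CPM in the library labelled LKO and 2.15 CPM in the control library, 1.77-fold lower. Mtif2 and Mtif3, initiation factor genes, had log2 ratios of -0.27 and -0.13.

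Of 8 measured synthetase-like and proofreading genes, 1 was called higher and 1 lower, near the 10.5% and 9.76% of all measured genes. Their median log2 ratio was -0.02. Dtd1, which removes D-amino acids from transfer RNA, was 1.52-fold higher (interval 1.26 to 1.84). Pstk, a kinase that acts on the serine bound by Sars to the selenocysteine transfer RNA, was 1.71-fold lower (interval 1.44 to 2.04). Sepsecs, which completes that conversion, had a log2 ratio of 0.18, and Aarsd1, which edits mischarged alanine transfer RNA, 0.08. Dtd2 and Eefsec, the selenocysteine elongation factor gene, had log2 ratios of -0.17 and -0.06.

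Interferon-stimulated genes, were set beside Wars because interferon induces it. Of 17 measured, 3 were called higher and 1 lower, against 10.5% and 9.76% of all measured genes. No conclusion is drawn from counts this small. Their median log2 ratio was -0.07. Rsad2, Tap1 and Gbp2, an antiviral enzyme, a peptide transporter and a guanylate-binding protein gene, were 1.76-fold, 1.73-fold and 1.54-fold higher, and Gbp2 was below 1 CPM in the control library. Irf7, a transcription factor gene of the response, was 2.07-fold lower, and Ifit3 and Psmb8 had log2 ratios of -0.45 each. Wars at -0.24 lay between these ends.

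**Figure D4:**
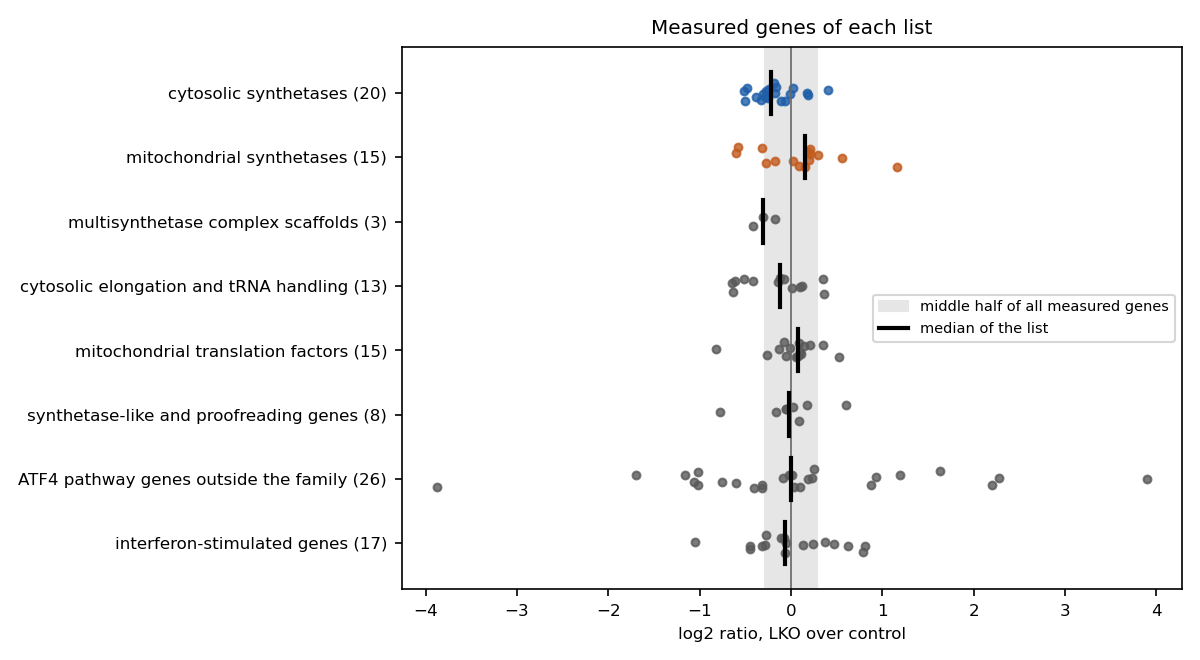
Log2 ratio, LKO over control, of each measured gene in 8 gene lists, with the list's median as a black bar and the span between the first and the third quartile of all measured genes in grey, from -0.28 to 0.29. The medians of the cytosolic and mitochondrial synthetases, -0.21 and 0.15, lie within that span, while single mitochondrial members reach -0.60 and 1.16 and the ATF4 pathway genes outside the family spread from -3.87 to 3.89. The ends of that last spread are Asns and Vldlr, each measured through 1 library alone.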

How the data were processed

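Libraries were made with a LEXOGEN mRNA-Seq kit from 500 ng of Trizol-extracted RNA, per the labels' protocols. The authors deposited raw read counts by gene symbol in a table for each of the 2 libraries. TopHat, edgeR and build mm10 are named without versions or roles, per the submitters' processing notes. The sources used here name no counter, annotation or use of strand.

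TMM factors from edgeR 4.0.16 (R 4.3.3) were 1.16 for the library labelled LKO and 0.865 for the control library. Ratios of CPM have 95% Clopper-Pearson intervals conditional on the summed count (scipy 1.17.1). Reads are not independent molecules where none carry molecular identifiers, and the intervals hold counting error only. With 1 library per group no test was possible. The procedure was tested on simulated counts that held counting error alone, so that test cannot speak to spread between mice.

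Coordinates and longest transcript lengths came from GENCODE M21 (GRCm38, the assembly of mm10), which held 24044 of 24421 symbols. Promoters came from RefSeq, and 1 further promoter stretch is not reported here. 13 members overlap exons of another gene. All members were described, and of each other list up to 3 highest and 3 lowest measured genes were named. Ddit3, Atf4 and Aldh18a1 fall outside this rule and were added after their values were seen. Members, lists and tests were chosen with earlier results of these data known. Alternatives were other scalings (DESeq2 1.42.0 size factors among them), filters, fold thresholds, an added count, removal of a length and GC trend by lowess (fraction 0.3), and narrower sets of members.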

Additional observations from a re-analysis of the deposited data

How the results depend on the processing

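No paired analysis was possible because each group holds 1 library. DESeq2 size factors, an added count of 0.5 and a filter on a summed count above 0 moved none of the group counts or medians beyond the limits used, and neither did leaving out Gars and Kars. With total-count scaling, 3 cytosolic and 7 mitochondrial genes were at least 1.5-fold higher and 0 mitochondrial genes lower, where 34.3% of the genes measured under TMM were higher. The medians then were 0.21 for cytosolic, 0.57 for mitochondrial, 0.18 for ATF4-linked and 0.25 for other cytosolic genes, by the added shift alone. With totals that leave out the 20 most abundant genes, 2 mitochondrial genes were higher and 0 lower, and the cytosolic, ATF4-linked and other cytosolic medians were -0.093, -0.12 and -0.047. Upper-quartile scaling gave 2 lower mitochondrial genes. A mean of at least 10 CPM left 0 higher and 0 lower mitochondrial genes and 3 pairings, with the cytosolic enzyme ahead in 1. Without the length and GC trend, 1 cytosolic gene (Aars) and 0 mitochondrial genes were lower, and the mitochondrial median was -0.032. Without members that overlap other exons, the cytosolic enzyme was ahead in 2 of 6 pairings. At 0.32 on the log2 scale, 1 cytosolic gene was higher and 5 lower, and 2 mitochondrial genes were higher and 2 lower, against 22.8% higher and 22.6% lower of measured genes. At 2-fold, 0 mitochondrial genes were lower, against 2.62% of measured genes. Among members with 1 curated transcript, a set chosen after seeing the data, 0 mitochondrial genes were higher and 0 lower, the ATF4-linked and other cytosolic medians were 0.10 and -0.33, and the cytosolic enzyme was ahead in 1 of 2 pairings. Where called counts stand without a share of all measured genes, that share was not computed for the setting. Nothing is read from those counts. Where no cause is stated, it was not tested. Low depth limits Mars2, Pars2 and Rars2 most.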

Other observations

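Of 20 members with more than 1 curated RefSeq transcript, 6 had counts in both libraries that were whole multiples of that number. Besides Pars2 these were Dars, Mars, Sars, Cars2 and Rars2, each with 2 curated transcripts. Over measured genes with 2 curated transcripts the share was 29.4%, against 25% if counts and transcript number were unrelated. The other members with more than 1 curated transcript did not have whole multiples in both libraries. With every member's counts divided by its transcript number all the same, the interval lay below 1 for 13 cytosolic and 5 mitochondrial genes. It lay above 1 for 3 cytosolic and 7 mitochondrial genes. The matching shares of all measured genes, with counts divided in this way, were not computed.

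Some neighbours of the synthetase genes differed more than the synthetase genes did. C77080, which overlaps 30 exonic bases of Yars on the opposite strand, had 192 CPM in the library labelled LKO and 101 CPM in the control library, 1.89-fold higher, where Yars was 1.31-fold lower. Ubfd1, which overlaps 89 exonic bases of Ears2, had 9.79 CPM in the library labelled LKO and 14.7 CPM in the control library, while Ears2 was nearly level. Eprs and Iars2 lie on chromosome 1 and point away from each other, with starts that do not adjoin. Iars2 starts at 185329396 on the minus strand and Eprs at 185363044 on the plus strand. The log2 ratios of Eprs and Iars2 were -0.51 and 0.29.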
